A study of Mus musculus with 3 samples.

Results

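The small RNAs described here come from 60 kb of mouse chromosome 15, from 74440001 to 74500000 on mm9, near the genes Mroh4 and Arc. All listed sequences that start in this interval were taken, 11769 of the 2219118 in the deposited list (0.530%). The place was chosen by its number of sequences, since its central 20 kb is among the richest windows of the list. The number of sequences is therefore a description and supports nothing.

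The list pools small RNAs from 3 immunoprecipitates of C57BL/6 mouse testis, with 1 library per group. One group is Tdrd1-associated RNA from adult testis, whose genotype the labels do not state. The second is Mili-associated RNA from adult wild-type testis. The third is Mili-associated RNA from testis of Tdrd1 knockout animals at 15 dpp (days post partum), so that age and genotype changed together and cannot be told apart. Germ cells make Tdrd1, which carries Tudor domains, and Mili (gene Piwil2), a member of the Piwi family that binds small RNAs. Per the labels, RNA of about 28 to 30 nt was cut from a gel, with a radioactive spike as the guide. The labels do not say how many animals gave each library or how the knockout allele was made. The list has no library, no read number and no strand, so that neither the knockout nor the 2 bound proteins could be compared, and each distinct sequence counts 1. In bulk testis, the number of cells that make a precursor and its output per cell cannot be told apart.

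piRNAs are small RNAs of germ cells that Piwi proteins carry, and they usually begin with U. Many are cut from long single-stranded precursors made at clusters, and in meiotic cells pairs of such precursors often run in opposite directions from a shared start. Secondary piRNAs arise when a piRNA guides a cut of the opposite strand (the ping-pong cycle), so that the members of a pair overlap by 10 nt at their 5′ ends. Such secondary piRNAs tend to have A at position 10, opposite the U of the partner.

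Among the marker genes looked up, those of germ cells had more listed sequences than the somatic ones. Between 121 and 330 sense sequences matched each of Ddx4, Dazl, Sycp3 and Piwil2, genes of germ cells. The somatic genes Sox9, Wt1, Cyp17a1 and Insl3 had between 0 and 8. Per kb of exon the germ cell genes had 40.15 to 164.6 and the somatic ones 0 to 11.24. These are small RNAs cut from transcripts and not mRNA levels.

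The RNAs shown here are the extremes of the cluster by one measure, the 5′ ends with the largest number of listed 3′ ends, 5 on the plus strand and 3 on the minus strand, each shown by its member of 27 nt. The first base is in capitals, and T stands for the U of the RNA as in the list.
Plus 1: Tgcttagcgtgggagatggatgaagct
Plus 2: Taaaactttgtggggcatttgatattg
Plus 3: Caggaatcctgatgaacaagtttgact
Plus 4: Tcctgatgaacaagtttgactctccat
Plus 5: Tgaagaaccgaacagtaaaagcagatg
Minus 1: Ttcaaagaactaaagagggtcgtggct
Minus 2: Ttcaatagtagatggcaggatcctgag
Minus 3: Tggagatctcaagagagtgtggctatc
The first lies at chr15:74470512-74470538 (mm9, plus strand) and was listed with 13 different 3′ ends, as RNAs of 18 to 30 nt. The second, at chr15:74470829-74470855, had 12 3′ ends. The other plus-strand RNAs had 11 each, at chr15:74467605-74467631, chr15:74467611-74467637 and chr15:74469975-74470001, the first by position of 8 that share this number. Plus 3 and plus 4 start 6 nt apart on the same transcript strand. Of the RNAs shown, on both strands, plus 3 is the only one that does not begin with U. The minus-strand RNAs had 7 3′ ends each and lie at chr15:74464996-74465022, chr15:74466458-74466484 and chr15:74499625-74499651. The last of them lies far from the other 2, within the range of the sequences that match Arc, 74499546 to 74499869. Arc is a gene of the minus strand. These RNAs were picked for their many 3′ ends, and 47.4% of the 5′ ends of the cluster had a single one.

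The cluster had 2 arms that point away from each other. Strand was inferred from the bases that overlapping sequences share, and 11504 of the 11769 sequences (97.7%) received one, 10345 of them plus and 1159 minus. The plus strand held 89.9% (95% interval 89.4 to 90.5%). A single turn from minus to plus, placed where it separates the strands best, fell at a start position of 74466794. To its left 1054 of 1104 sequences were minus (95.5%, 94.1 to 96.6%), and to its right 10295 of 10400 were plus (99.0%, 98.8 to 99.2%). The turn thus placed 98.7% of sequences on the side of their strand.

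The arms were very unequal. The minus strand peaked close to the turn, with 151 sequences in the 1 kb from 74465001, and thinned out leftwards to 0 to 7 per kb beyond 74449000. The plus strand rose from 127 sequences in the 1 kb from 74466001 to 663 in the next. It stayed above 500 in each of the following 11 kb, with 1020 plus-strand sequences at its highest between 74476001 and 74477000, and dropped to 78 in the 1 kb from 74479001. Some 12 bins of 1 kb held 500 or more sequences, out of 299 such bins in the whole list, whose median bin with any sequence held 2. The richest bin of the cluster, with 1024 sequences, ranked 9 among the 277449 bins of the list.

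**Figure D1:**
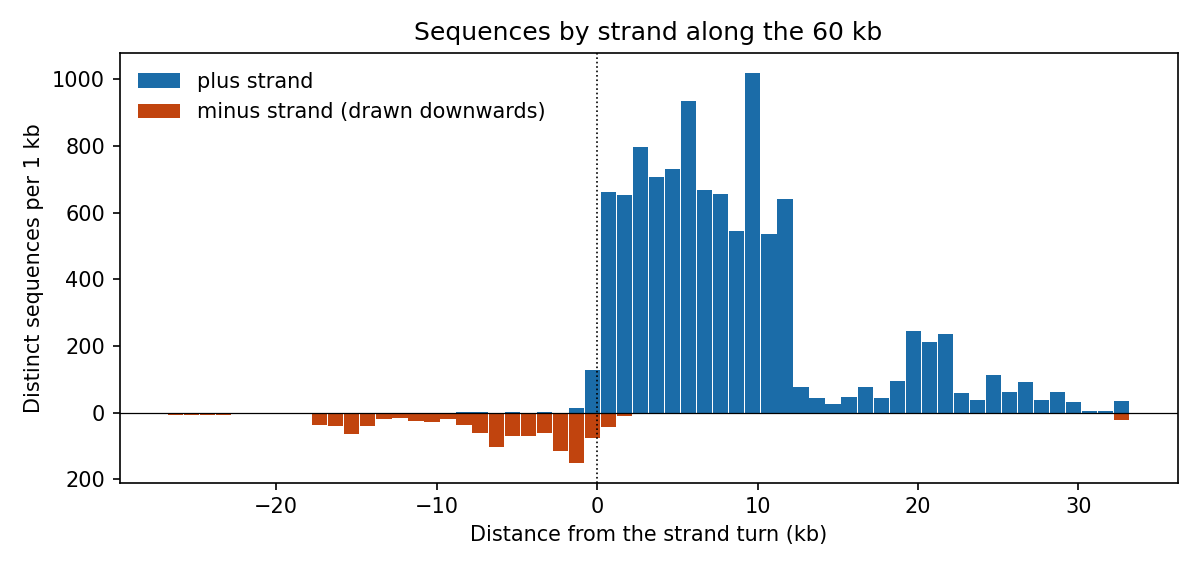
Distinct sequences per 1 kb along the 60 kb, against the distance in kb from the strand turn (dotted line), with plus-strand sequences drawn upwards and minus-strand sequences downwards. The plus strand stays above 500 per kb over the 12 kb that follow the turn, and the minus strand does not exceed 151.

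By these values the 60 kb was divided, after they had been seen, into 4 segments. The minus arm, 74440001 to 74465000, held 971 sequences (8.25% of the cluster, 38.8 per kb). The turn segment, 74465001 to 74468000, held 1087 (362 per kb). The dense segment, 74468001 to 74479000, held 7929 (67.4% of the cluster, 721 per kb), 18.6 times the density of the minus arm. The right tail, 74479001 to 74500000, held 1782 (84.9 per kb). The tail had a second rise of 220 to 246 sequences per kb between 74486001 and 74489000. Nearly all of the tail was plus (1644 of 1666 with a strand), so that plus-strand sequences were listed beyond the dense segment. Whether they come from the same RNA as those of the dense segment was not tested.

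Strands overlapped at the turn. Of the 105 minus-strand sequences to the right of it, 68 started within 2 kb and 21 in the last 1 kb of the interval, where Arc lies. Of the 50 plus-strand sequences to the left, 46 started within 2 kb. The 3 kb of the turn segment thus held sequences of both strands, 805 plus and 270 minus. Of its bases 70.6% were covered by a sequence of either strand, and coverage by strand was not computed.

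Few sequences lay at the left border of the interval and more at the right. The 5 kb just inside the left border held 37 sequences and the 5 kb just outside held 26. On the right the values were 180 inside and 119 outside. The border on the right therefore cuts through listed sequences.

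Coverage of the dense segment was almost complete. Of its bases 93.7% were covered by a sequence with a strand, against 20.2% in the minus arm, 70.6% at the turn and 36.6% in the right tail. It had 54 gaps. The longest, 115 nt from 74478886, reached the right border of the segment at 74479000, where the count stopped. Up to 137 distinct sequences lay over a single base, at 74476275. Where sequences overlapped they carried the same base at every position, with 0 differing positions.

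The 120 nt with the largest number of plus-strand 5′ ends, weighted by their 3′ ends, show how closely RNAs start within the dense segment. The stretch lies at chr15:74472952-74473071 (mm9, plus strand) and is pieced together from the listed sequences. Capitals mark 5′ ends with 5 or more 3′ ends.
Dense stretch: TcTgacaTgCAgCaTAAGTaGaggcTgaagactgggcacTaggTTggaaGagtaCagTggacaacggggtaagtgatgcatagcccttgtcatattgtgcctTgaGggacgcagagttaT
In it 246 sequences started at 70 different positions. The 22 positions in capitals gave 134 of the sequences, and 12 of them are T. Capitals crowd in the first part of the stretch and are rare in the second.

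The first base was U in 58.7% of cluster sequences of 24 to 32 nt (57.7 to 59.6%), followed by A in 17.7%, G in 12.1% and C in 11.6%. The whole list had 68.7% U. Within the cluster the share was lower where the density was higher. It was 71.3% (68.3 to 74.2%) in the minus arm, 66.1% (63.8 to 68.4%) in the right tail, 57.6% (54.4 to 60.7%) at the turn and 55.5% (54.3 to 56.6%) in the dense segment. In the 12 bins of 1 kb with 500 or more sequences it ran from 45.3 to 65.2% with a median of 56.0%, and in the 37 bins with at least 20 but under 500 sequences from 52.0 to 93.8% with a median of 69.4%. The lowest of the 49 values was that of the richest bin. By strand, the plus strand had 57.2% (56.2 to 58.2%) and the minus strand 68.3% (65.5 to 71.0%). Within the plus strand the share also differed with density, since the sparse right tail and the dense segment, both nearly all plus, had the 66.1 and 55.5% given above.

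U was more common where a 5′ end was listed more often. Each 5′ end counted once, U began 40.2% (38.2 to 42.2%) of the 2363 5′ ends with a single 3′ end and 53.2% (51.0 to 55.4%) of the 2012 with 2 to 4. The share was 72.5% (68.4 to 76.3%) for the 505 with 5 to 7 and 87.4% (79.4 to 93.1%) for the 103 with 8 or more. In the list a 5′ end counts once for each of its 3′ ends, whatever its number of reads.

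**Figure D2:**
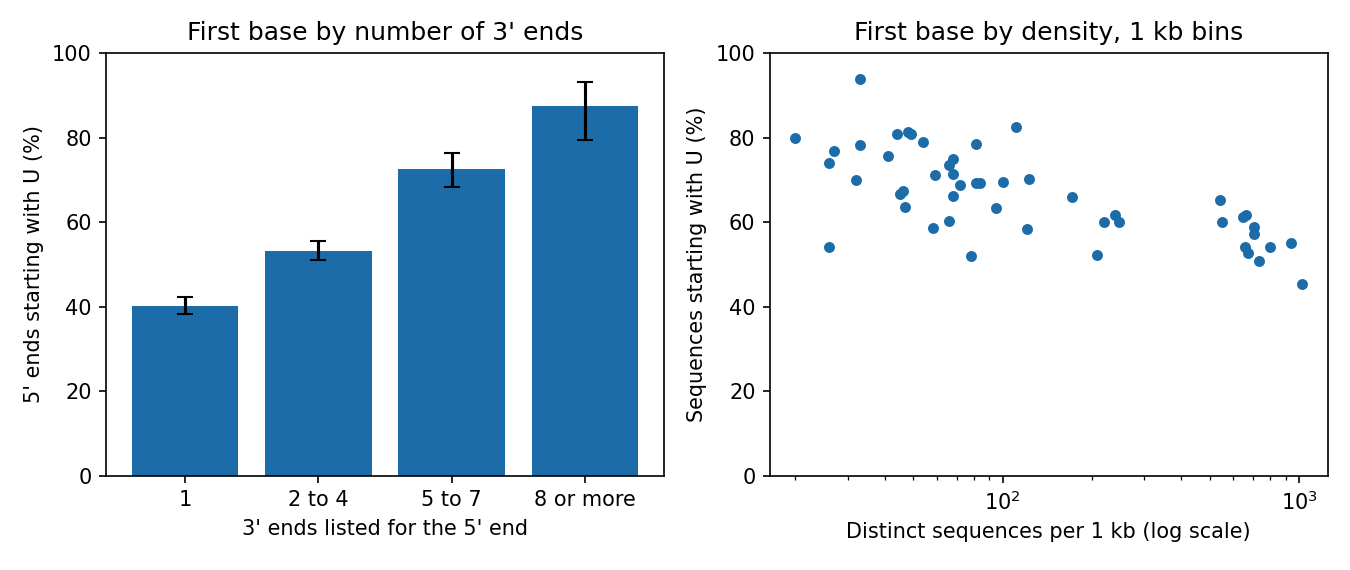
Left, the share of 5′ ends that begin with U (bars, exact 95% intervals) by the number of 3′ ends listed for them; right, the share of sequences of 24 to 32 nt beginning with U against the number of sequences in each 1 kb bin with 20 or more (points, log axis). The bars rise from 40.2 to 87.4%, and the densest bins lie at the lower end of the points.

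The same preference shows when positions and not sequences are counted. In the dense segment 1388 of 2680 covered T positions of the plus strand served as a 5′ end (51.8%, 49.9 to 53.7%), against 26.0% of A, 21.1% of C and 18.4% of G positions. A used T position had 3.20 3′ ends on average and a used A position 2.14. In the minus arm, read on the minus strand, 25.6% of T positions (23.2 to 28.1%) and between 4.26 and 5.13% of the other bases were used. U among the covered bases made up 26.0% on the plus strand of the dense segment and 24.2% on the minus strand of the minus arm, so the base at the 5′ end departed from the sequence it was cut from.

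**Figure D3:**
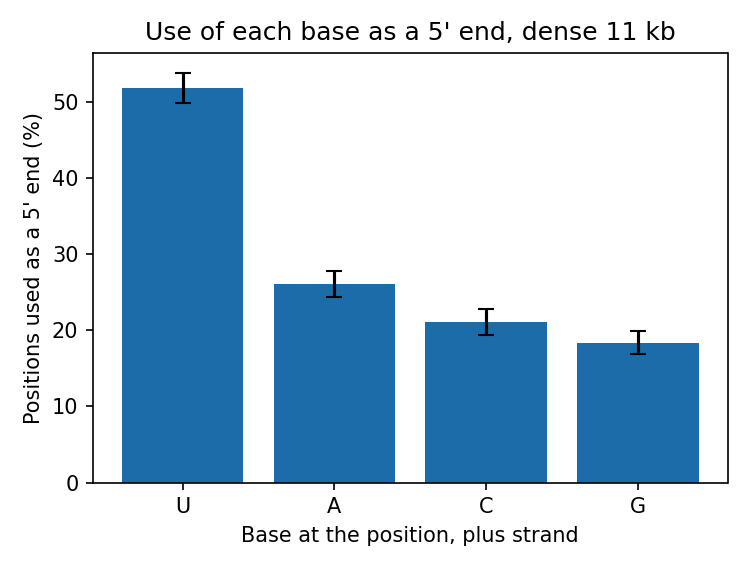
Share of covered positions of the dense 11 kb that served as a 5′ end on the plus strand, by base (bars, exact 95% intervals). U positions were used in 51.8% and the other bases in 18.4 to 26.0%.

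Further positions departed from their neighbours. U was low at position 2, with 19.6% on the plus strand and 16.3% on the minus strand. A was highest at position 5, with 38.2% on the plus strand and 44.1% on the minus strand. The base just after the 3′ end was U in 23.9% (23.1 to 24.8%) on the plus strand. On the minus strand it was U in 23.9% (21.2 to 26.7%). U made up 26.0% (25.2 to 26.9%) of covered bases on the plus strand of the dense segment. On the minus strand of the minus arm it made up 24.2% (23 to 25.4%). Left out were 250 plus-strand and 167 minus-strand sequences for which the base after the 3′ end was unknown. A downstream U is the mark of precursors cut into head-to-tail piRNAs. The last base of the sequences was U, A, C or G in 25.0, 25.9, 25.6 and 23.5%.

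Most lengths lay in the range known for RNAs bound to Mili, and below the 28 to 30 nt that the labels give for the gel. The mean was 26.2 ± 1.87 nt (SD over 11769 sequences), with 26 nt as the most common length, against 27.1 ± 1.69 nt and 27 nt in the whole list. Sequences of 24 to 28 nt made up 83.7% (83.0 to 84.4%). The class of 29 to 32 nt held 8.79% (8.28 to 9.31%) against 19.9% in the whole list. Sequences under 24 nt were 7.52% (7.05 to 8.01%) of the cluster and 1.90% of the list. The strands differed in spread more than in mean. Lengths of 29 to 32 nt made up 9.36% (8.80 to 9.94%) on the plus strand and 4.57% (3.44 to 5.94%) on the minus strand, and lengths under 24 nt 7.98% (7.47 to 8.52%) and 4.23% (3.14 to 5.55%). The plus strand was also the denser one, with 2.40 sequences per 5′ end against 1.71, and the part of density in this spread was not tested.

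**Figure D4:**
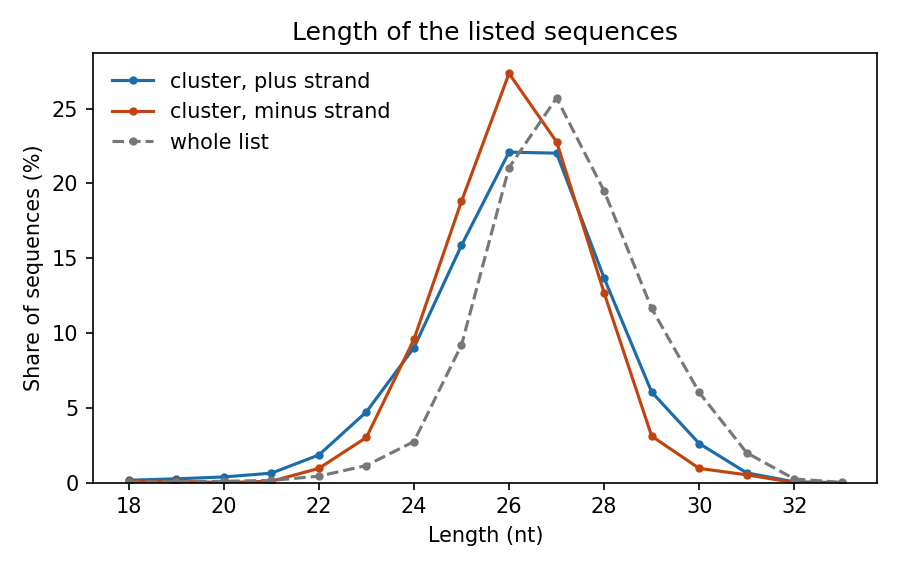
Share of sequences by length in nt for the plus and the minus strand of the cluster and for the whole list. Both strands of the cluster peak at 26 nt and the list at 27 nt, and the plus strand has more sequences than the minus strand at 18 to 23 nt and at 29 to 30 nt.

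5′ ends were fewer than 3′ ends. The 11504 sequences with a strand had 4983 different 5′ ends and 6506 different 3′ ends. A single 3′ end was listed for 47.4% of 5′ ends, and the most used 10% of 5′ ends held 28.0% of the sequences. In the minus arm 63.4% of 5′ ends had a single 3′ end and in the dense segment 41.2%.

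Opposite-strand pairs stood out at an overlap of 10 nt. Among sequences of 24 to 32 nt with a strand there were 146 pairs at 10 nt, against 43.0 ± 11.2 (mean and SD of the overlaps of 1 to 9 and 11 to 20 nt, which ran from 25 to 64), a ratio of 3.40. With each pair of 5′ ends counted once there were 30 at 10 nt and between 10 and 19 at the other overlaps (ratio 2.12). Of the 10629 sequences counted, 140 (1.32%) had such a partner. Partners listed elsewhere or without a strand could not be seen, and members of a pair may come from different libraries.

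Pairs at 10 nt and pairs at the other overlaps both lay mostly where the arms overlap. The turn segment held 90 of the 146 pairs at 10 nt (61.6%) and 61.0% of the pairs at the other overlaps. Of pairs of 5′ ends it held 17 of 30 at 10 nt (56.7%) and 54.3% at the other overlaps. The ratio at 10 nt was 3.43 in the turn segment and 3.66 in the dense segment. The dense segment had only 24 minus-strand sequences, and its 56 pairs at 10 nt came from 13 pairs of 5′ ends. With each pair of 5′ ends counted once the ratios were 2.21 at the turn and 2.33 in the dense segment. Of the 30 pairs of 5′ ends, 20 had 1 member beginning with U, 7 had both and 3 had none. The 4 pairs with most sequences are shown with their 10 overlapping bases in capitals, which are reverse complements of each other.
Pair 1 plus: TAACAGTGGCtgcaaccttttaatgag
Pair 1 minus: GCCACTGTTAtggtctcacaagtaaaa
Pair 2 plus: TGTAATATCTgcagctctgctactggc
Pair 2 minus: AGATATTACAggggctctaggtaggg
Pair 3 plus: TACTCTTCGGtctgcaatgcccctcag
Pair 3 minus: CCGAAGAGTAgactagtccaaatgc
Pair 4 plus: TGGGAGAACAagaggcaggccccactc
Pair 4 minus: TGTTCTCCCAggggtaggtagctttg
The plus-strand members lie at chr15:74468575-74468601, chr15:74467064-74467090, chr15:74467200-74467226 and chr15:74467721-74467747 (mm9). Their minus-strand partners lie at chr15:74468558-74468584, chr15:74467048-74467073, chr15:74467185-74467209 and chr15:74467705-74467730. All 4 plus-strand members begin with U, which places an A at position 10 of their partners, and 3 of the 4 partners do not begin with U. The plus-strand 5′ ends had 8, 4, 6 and 6 3′ ends in sequences of 24 to 32 nt and their partners 2, 3, 2 and 2.

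A at position 10 was raised at the turn. There it was found in 37.7% of sequences with a strand (34.7 to 40.8%, 372 of 987), next to 26.1% at position 9 and 30.8% at position 11. On the minus strand of the turn segment it was 44.7% (38.4 to 51.0%, 113 of 253) and on the plus strand 35.3% (31.8 to 38.9%). Without the members of the 10-nt pairs, in which this A only restates the U of the partner, the share at the turn was 36.7% (33.6 to 40.0%). In the dense segment A made up 30.7% of position 10 and 30.8% of position 11, and over the whole cluster 31.9% and 31.5%. Sequences that share a 5′ end also share their base at position 10. The 1075 sequences with a strand in the turn segment, of any length, had 470 5′ ends, so that the intervals there are too narrow. The share per 5′ end was not computed for the turn segment.

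Head-to-tail order did not stand out in the list. Each 3′ end was paired with every downstream 5′ end on the same strand within 20 nt, not only with the nearest. A distance of 1 nt had 5576 pairs of sequences, below the 6072 ± 194 of distances of 2 to 20 nt (ratio 0.918). The low value was not particular to 1 nt, since 2 nt had 5595 pairs and the counts rose to 6404 at 11 nt. With each pair of ends counted once there were 1269 at 1 nt and 1248 at 2 nt. In the right tail, where 5′ ends are sparser, there were 224 pairs at 1 nt against 185 ± 18.5, with 214 as the highest of the other distances (ratio 1.21). With each pair of ends counted once the right tail had 90 at 1 nt against 79.6 ± 6.89, and 91 as the highest of the others, so that 1 nt no longer stood above every other distance. In the minus arm there were 27 against 37.4 ± 13.2. Counts of distinct sequences without read numbers are a weak measure of this order.

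**Figure D5:**
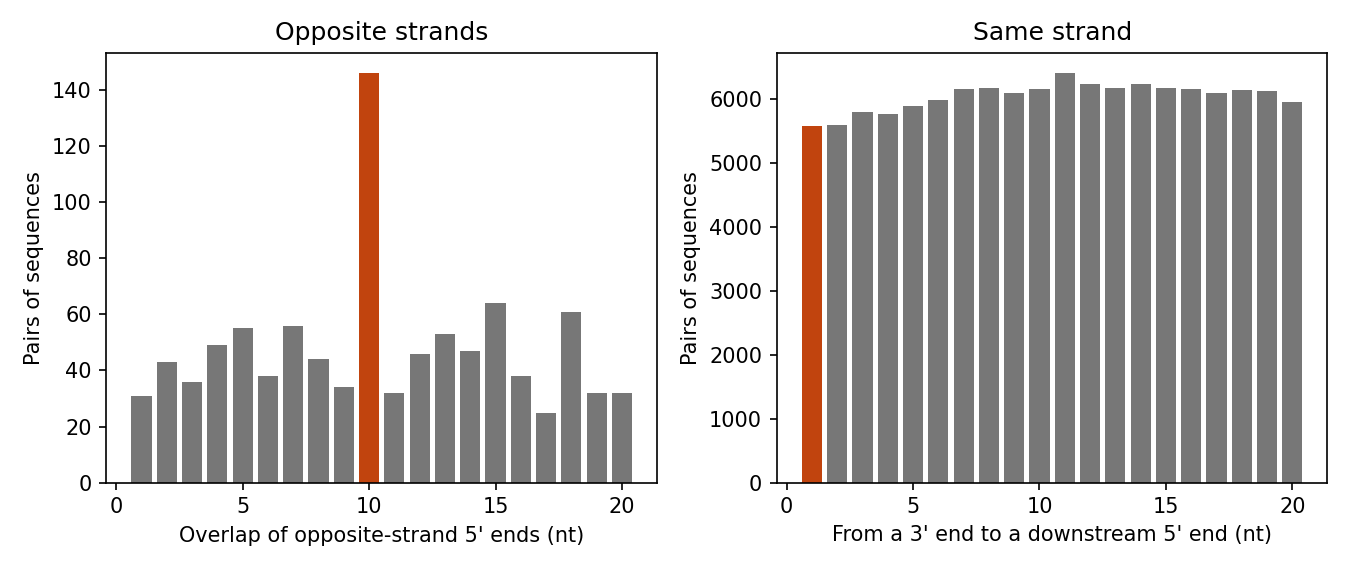
Left, pairs of opposite-strand sequences by the overlap of their 5′ ends in nt; right, pairs of same-strand sequences by the distance in nt from a 3′ end to a downstream 5′ end, with 10 nt and 1 nt in colour. The overlap of 10 nt stands at 146 pairs with the others at 25 to 64. The distance of 1 nt has the fewest pairs of its panel, with 2 nt close to it.

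Few of the sequences came from annotated exons. Of the 11769, 189 matched an annotated transcript over their whole length (1.61%, 1.39 to 1.85%), 169 of them in the sense direction, and 0 matched a transcript of another chromosome. The matches fell on 2 genes, Mroh4 and Arc, both on the minus strand. The annotation (GENCODE vM21) is of another build, so that genes were matched by sequence and not by position. In all 172 matches with a strand the inferred strand was the one the gene implies.

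The minus arm ran along Mroh4, a protein-coding gene named for its HEAT-like repeats. In the whole list 152 sequences were sense to its exons and 1 antisense, from 74436527 to 74466739. The sense matches ended 55 nt before the start position of the turn. The range spans 30213 nt, and the annotated gene 30325 nt. Of the 1068 minus-strand sequences in the range, 135 lay in exons (12.6%, 10.7 to 14.8%). That is 33.3 per kb of merged exon against 35.7 per kb of the rest of the range, with sequences across an exon border counted with the rest. Averaged over the range, exons and the rest of Mroh4 were thus listed at similar density on the sense strand. The density of the minus strand rose towards the turn, and exons and the rest were not compared at like distance from it. Another 50 sequences in the range were plus.

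The right end reached Arc, the gene of a capsid-like protein known for its role at synapses. Inside the cluster 22 sequences were sense to Arc and 19 antisense, and outside it, beyond the border at 74500000, another 74 and 21. The antisense ones run in the direction of the plus arm, and the 1 kb from 74499001 held 34 plus-strand and 21 minus-strand sequences. Arc as a whole had 96 sense sequences, or 31.4 per kb of exon.

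Apart from Arc, other genes known to lie in this part of the chromosome added 0 sequences to the cluster. Of the 10 genes of this list found in the annotation, Arc was the only one with sequences inside. Gml, a gene of a GPI-anchored protein, had 52 sense sequences (45.1 per kb) and Jrk, named for the jerky mutation, had 123 (21.0 per kb), both with positions beyond the cluster. Lynx1, which encodes a modulator of acetylcholine receptors, had 56 (12 per kb). The adhesion receptor gene Adgrb1, on the other side, had 6 and none within the cluster. Lypd2 had 0 on both strands. Tsnare1 was not found under this name in the annotation and was not analysed here.

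Few of the sequences shared a long stretch with sequences listed elsewhere. At least 18 nt were shared with a sequence listed elsewhere, on either strand, by 272 of the cluster's sequences (2.31%, 2.05 to 2.60%), from 1.10% at the turn to 3.31% in the right tail. Copies of repeats that were not listed cannot be seen this way. No such share is given for the whole list or for other places, so whether this value is usual cannot be told.

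Set beside 3 other dense places of 60 kb, the cluster was the smallest and had the weakest second arm of those with a turn. The values are side by side, with no test, since the places were chosen for their density and stand in the same pooled list. On chromosome 17 (40979 sequences) a single turn from minus to plus, at 27461964, placed 98.8% of sequences on the side of their strand, and 35.9% lay left of it. On chromosome 6 (18350 sequences) a turn at 127746411 placed 99.5%, with 30.7% to the left. The cluster of chromosome 15 had 9.60% to the left. The place on chromosome 2 (28416 sequences) was plus in 99.0% with hardly any second arm.

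In first base, mean length and the share of 29 to 32 nt the cluster resembled these places more than the whole list. U came first in 58.7% here and in 53.4%, 59.1% and 59.9% on chromosomes 17, 6 and 2, and mean lengths were 26.2 nt here and 26.2, 26.3 and 26.2 nt there. The class of 29 to 32 nt held 8.79% here, 11.3% on chromosome 17, 9.57% on chromosome 6 and 9.64% on chromosome 2. The ratio of pairs at 10 nt was 3.40 here and 3.36, 3.34 and 3.15 there, although the number of pairs ran from 146 here to 1235 on chromosome 17. The 1-nt distance between ends had ratios of 0.918 here and 0.958, 0.958 and 0.999 there. Neither ratio was computed for the whole list. Intervals of shares are exact binomial ones that cover counting error only. Neighbouring sequences of a precursor are not independent, so that real errors are larger.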

How the data were processed

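The authors deposited, per the file headers, a single list with a sequence, a chromosome and a position on NCBI mouse build 37 (mm9 in the submitters' processing notes) in its 3 columns. Each of the 2219118 sequences stands once, so that the unit is a listed sequence and the depth per library is unknown. For the aligner, its mismatches and the placing of repeated sequences: not given in the sources used here. Members were all rows on chromosome 15 with a start in the 60 kb.

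A sequence was called plus or minus when it shared 12 nt at the same positions with a neighbour of another midpoint in 1 orientation only. The caller and the counts of overlaps were tested on simulated data. Transcripts (GENCODE vM21) were matched by a seed of 18 nt and then over the whole length. Shares have exact Clopper-Pearson 95% intervals (scipy 1.17.1, Python 3.11.15). Nothing was compared between groups, which need a library for each read, and no test was run. Named were all genes matched by 20 or more sequences, the neighbouring genes of a list, the 5′ ends with most 3′ ends and the pairs with most sequences. The members, lists and rules were chosen with earlier results of these data known. The segments were set after the strand profile had been seen. Alternatives were the counting of each 5′ end once, the central 20 kb, other lengths, first bases and strand rules.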

Additional observations from a re-analysis of the deposited data

How the results depend on the processing

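No paired analysis was possible because the list names no library and each group has 1. With each 5′ end counted once, the cluster had 4983 5′ ends in place of 11769 sequences, the plus share was 86.4%, the U share 50.2%, the share of 5′ ends with an RNA of 29 to 32 nt 15.7%, and the ratio of pairs at 10 nt 2.12. In the central 20 kb alone the plus share was 92.5% and the U share 56.6%. A at position 10 was 35.1% among sequences that do not begin with U. The cause of these shifts was not tested. Of 20 alternatives 12 stayed within the interval, SD or 1.5 times of the reported value, 8 moved beyond it, and 0 changed direction, though shares have no direction to change. Without the pair of 5′ ends with most sequences, an alternative chosen after seeing the data, the ratio at 10 nt was 3.23. With strand calls from 16 nt the plus share was 90.0%. Without read numbers, rare and abundant RNAs weigh the same, and the depth at which a 3′ end enters the list is unknown.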
